A study of Rattus norvegicus with 15 samples.

Results

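The Hox genes of the rat prostate were examined: every gene of the deposited expression table named Hoxa, Hoxb, Hoxc or Hoxd with a group number and nothing else, 36 of 22436 genes. Of these, 26 belong to paralog groups 1 to 9, called anterior here, and 10 to groups 10 to 13, called posterior. The values are RNA-seq levels of prostate tissue from SD rats, 5 samples each in 3 groups whose replicates are numbered 6 to 10. Control samples are labelled as having had no treatment, Model samples come from the rat model of chronic prostatitis and pelvic pain, and LIPUS samples come from that model after low-intensity pulsed ultrasound for 4 weeks, at an intensity given as 1.0 W/cm2 in 1 label and as 1.5 W/cm2 in another. How the model was induced, the age of the animals, the prostate lobe sampled and whether each sample is a separate animal are not given in the sources used here, so a p-value speaks only of the spread among the samples at hand. The question was which Hox genes mark this tissue, how anterior and posterior members compared, and whether they differed between the groups.

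Hox genes encode homeodomain transcription factors that lie in 4 clusters, and their order along a cluster follows the order in which they are used from head to tail of the embryo. The most posterior genes, those of group 13, are known for the development of the hindgut, the genital tubercle and the urogenital sinus from which the prostate grows. Adult organs keep much of this code: Hoxb13 is known as a marker of prostate luminal epithelium and as a partner of the androgen receptor, while Hoxa13 and Hoxd13 are known from both the epithelium and the mesenchyme of the prostate. Hox proteins bind DNA together with Pbx and Meis cofactors, and Polycomb and trithorax chromatin complexes are known to keep the clusters off or on.

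Levels are given as scaled FPKM: fragments counted relative to gene length and library depth, divided by 1 factor per library so that the middle gene of 10313 genes detected in every library stays level. This scaling matters here, because mitochondrially encoded genes took 3.75% to 4.69% of the reads of the Control libraries, 23.5% to 43.5% in Model and 43.0% to 83.3% in LIPUS, which lowers the deposited FPKM of every nuclear gene. The factors did not follow that share alone. Model replicate 9, with 27.2% mitochondrial reads, had a factor of 0.542, and Model replicate 7, with 43.5%, had 0.674. Scaling to nuclear reads, which takes in the mitochondrial share only, is given as an alternative and changed several calls. Libraries held 29675962 to 36402094 reads. Model replicate 7 stood apart from the other Model samples in its secretory genes: its log2 ratio of ventral to dorsolateral secretory reads was 7.76, against -9.25 to -2.77 in the other 4. LIPUS replicate 10 had the highest mitochondrial share and the smallest factor, 0.179. Some results are also given without 1 of these libraries, but not every result that may rest on them.

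The 36 genes formed a code with its weight at the posterior end. A level above 0.5 in at least 5 of the 15 samples, the filter for testing, was passed by 21 genes: 14 of 26 anterior and 7 of 10 posterior ones. They were 6 of 10 Hoxa, 9 of 9 Hoxb, 6 of 9 Hoxd and 0 of 8 Hoxc genes. The other 15 had between 1 and 426 reads over all 15 libraries together, and Hoxc genes made up at most 0.814% of the summed Hox level in any library. No reads in a library still allows for up to 3, a level of 0.0389 to 0.248 scaled FPKM at a gene length of 2 kb (counting error alone), so a low member listed at 0 was not detectable at this depth rather than absent. The symbols Hoxb1 and Hoxc12 do not occur among the 22436 genes, so neither could be examined under that name. The gene number that RefSeq pairs with Hoxa10 stands in the deposited table under the symbol LOC100911668, outside the naming rule. Its group means were 15.8 (Control), 17.5 (Model) and 17.3 (LIPUS), and it was not called in any comparison on the scaled values.

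**Figure D1:**
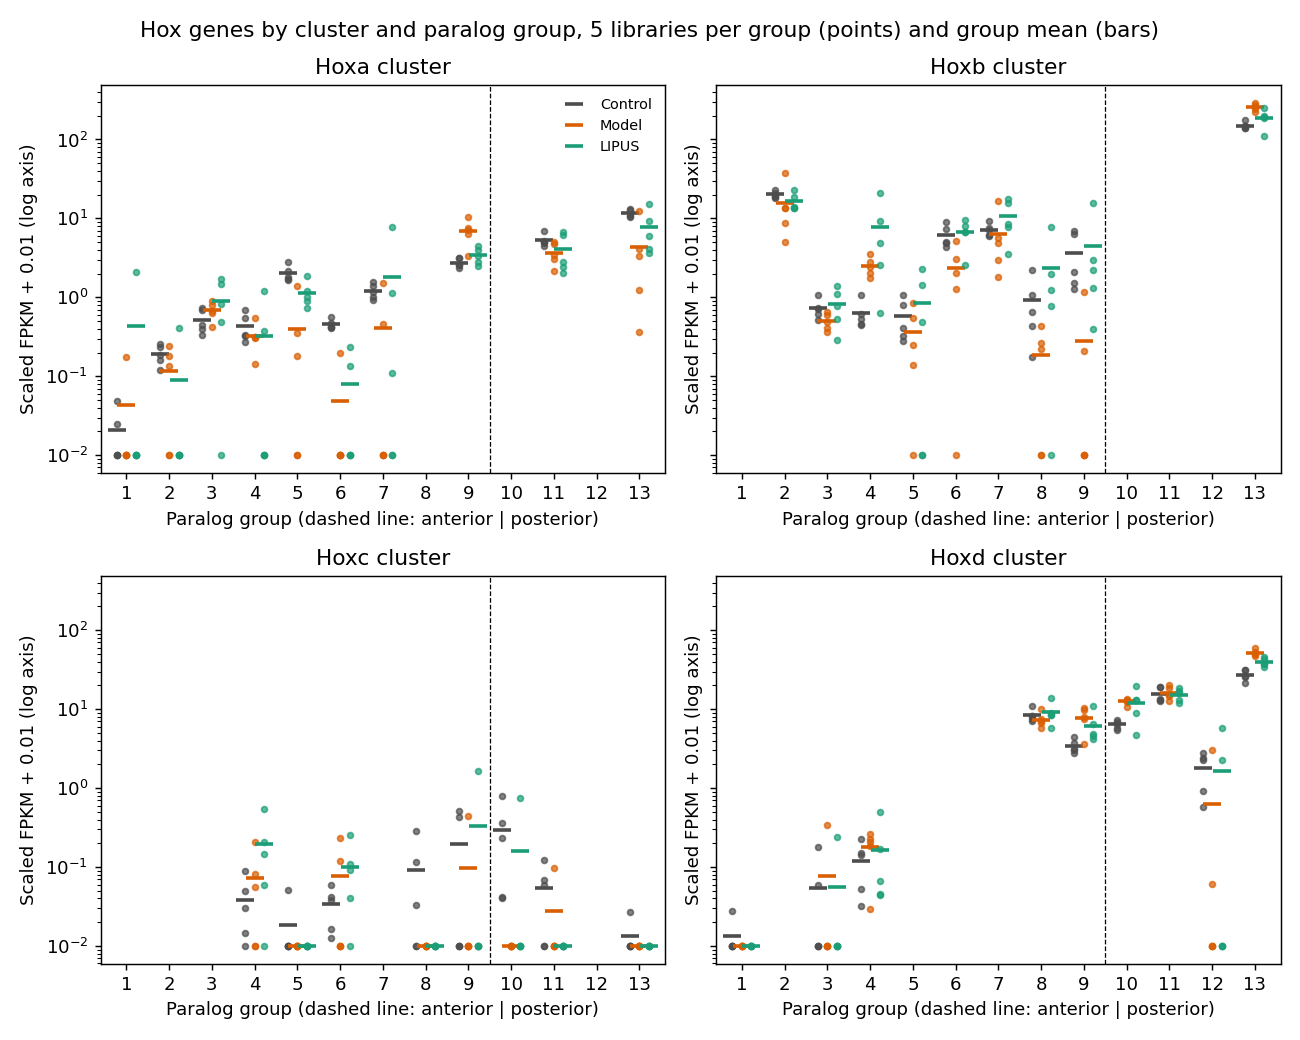
Level of each Hox gene by cluster (panels) and paralog group (x axis), as scaled FPKM plus 0.01 on a log axis; points are libraries, bars are means of 5. Hoxb13 stands highest, the posterior Hoxd genes follow, and the Hoxc panel stays near the bottom of the axis.

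Sequence at the starts of these genes was read from the RefSeq promoter table (rat build GRCr8, 250 bases before to 50 bases after the start), which matched 18 of the 36 members, among them none of the Hoxb cluster. Their promoters held a median of 24.5 CG dinucleotides and 63.5% G and C, against 7 and 51.7% over all 33469 promoters. The 4 promoters printed here belong to genes that parted ways in Model samples, as described further on: Hoxd13, Hoxd10 and Hoxa9 were higher there and Hoxa13 was lower. They were chosen after the values were seen. Capitals mark the letters TATAAA or CCAAT on either strand, so TTTATA and ATTGG are marked too. In Hoxd13 the matches TTTATA and TATAAA overlap and are marked as 1 run. Each is printed on the strand of its gene: Hoxd13 at chr3:79977827-79978126 (plus strand), Hoxd10 at chr3:80001697-80001996 (plus), Hoxa13 at chr4:82691652-82691951 (minus) and Hoxa9 at chr4:82656999-82657298 (minus).
Hoxd13: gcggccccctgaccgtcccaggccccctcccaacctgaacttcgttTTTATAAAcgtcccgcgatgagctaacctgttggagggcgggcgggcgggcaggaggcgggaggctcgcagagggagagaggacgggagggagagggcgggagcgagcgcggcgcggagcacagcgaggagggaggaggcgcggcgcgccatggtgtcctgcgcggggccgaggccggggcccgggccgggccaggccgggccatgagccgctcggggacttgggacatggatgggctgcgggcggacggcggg
Hoxd10: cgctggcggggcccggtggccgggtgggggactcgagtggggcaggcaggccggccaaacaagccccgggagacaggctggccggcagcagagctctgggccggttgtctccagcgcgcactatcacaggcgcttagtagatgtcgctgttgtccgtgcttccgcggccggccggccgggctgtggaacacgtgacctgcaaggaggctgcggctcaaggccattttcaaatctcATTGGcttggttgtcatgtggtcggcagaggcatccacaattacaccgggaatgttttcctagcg
Hoxa13: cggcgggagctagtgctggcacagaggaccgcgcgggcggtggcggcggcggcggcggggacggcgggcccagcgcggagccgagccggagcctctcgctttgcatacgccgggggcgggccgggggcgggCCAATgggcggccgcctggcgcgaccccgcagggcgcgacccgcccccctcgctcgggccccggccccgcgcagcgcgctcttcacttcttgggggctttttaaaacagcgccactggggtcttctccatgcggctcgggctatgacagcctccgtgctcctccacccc
Hoxa9: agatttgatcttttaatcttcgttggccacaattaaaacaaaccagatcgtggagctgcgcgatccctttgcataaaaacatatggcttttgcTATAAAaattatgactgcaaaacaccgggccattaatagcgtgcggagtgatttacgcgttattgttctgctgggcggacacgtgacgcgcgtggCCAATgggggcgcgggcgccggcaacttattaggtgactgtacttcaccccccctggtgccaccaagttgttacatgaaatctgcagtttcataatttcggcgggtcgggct
TATAAA was present in 2 of the 18 Hox promoters, Hoxa9 and Hoxd13, and in 14.2% of all promoters. CCAAT was present in 11 of 18, among them Hoxa9, Hoxa13 and Hoxd10, and in 37.5% of all promoters. GGGCGG, searched on both strands like the others, was in 11 of 18, Hoxa9, Hoxa13 and Hoxd13 included, against 33.1% of all. TGTTCT, the letters of an androgen response half-site, and TTTATG, letters often bound by posterior Hox proteins, were each found in 2 of 18, Hoxa9 and Hoxd4, against 20.7% and 12.7% of all. A match of CCAAT can run into one of TATAAA by the shared letter T. A match is a description of the letters and not a binding site.

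In the Control prostate, Hoxb13 was the highest Hox gene, with 150.3 ± 15.2 scaled FPKM (SD, n = 5). It was followed by Hoxd13 (27.3 ± 4.27), Hoxb2 (20.1 ± 1.95), Hoxd11 (15.6 ± 3.41) and Hoxa13 (11.7 ± 1.28). Next came Hoxd8, Hoxb7, Hoxd10, Hoxb6 and Hoxa11, with means from 8.44 down to 5.27, and then Hoxb9, Hoxd9, Hoxa9, Hoxa5, Hoxd12 and Hoxa7, from 3.65 down to 1.20. Hoxb8 and Hoxb4 were under 1. Only the step from Hoxb13 to Hoxd13 separated neighbours in this order beyond their spread: every other pair of neighbours overlapped in range. In Model, the steps from Hoxd13 to Hoxd11 and from Hoxd10 to Hoxd9 were clear as well, and in LIPUS the step from Hoxd13 to Hoxb2. FPKM is a value per length of gene, so these levels can be set side by side between genes. The anterior genes Hoxb2 and Hoxd8 thus stood among the 6 highest of the 36 in Control, a ranking that leaves out LOC100911668 (15.8). Not all posterior genes were high: Hoxd12 stood at 1.77, and the 3 posterior Hoxc genes had between 1 and 109 reads over all libraries.

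Summed over members, posterior genes made up 78.4 ± 3.60% of the Hox level in Control and 77.8 ± 7.47% in LIPUS, and 87.0 ± 2.71% in Model (SD, n = 5 each). By library the posterior share was 82.0, 74.0, 75.5, 81.7 and 78.9% in Control, 86.8, 82.5, 87.1, 89.2 and 89.1% in Model and 81.3, 85.0, 78.1, 79.4 and 65.3% in LIPUS, for replicates 6 to 10 in that order. All 5 Model libraries lay above all 5 Control libraries, with Model replicate 7 the closest, and the LIPUS libraries spanned both groups, with LIPUS replicate 10 below every other library. Hoxb13 alone held 53.9 ± 2.46%, 64.4 ± 2.40% and 54.2 ± 10.5% of the Hox level in the 3 groups. As a log2 ratio, the posterior sum over the anterior sum came to 1.88 ± 0.31 for Control, 2.76 ± 0.33 for Model and 1.86 ± 0.59 for LIPUS. With Hoxb13 left out, an alternative chosen after seeing the data, it was 0.20 ± 0.34, 0.81 ± 0.38 and 0.14 ± 0.30. Among the 36 genes, the posterior sum without Hoxb13 was 68.3 ± 7.35 scaled FPKM in Control and the anterior sum 59.8 ± 8.05. All sums and shares of posterior, group and cluster levels leave out LOC100911668, the entry for Hoxa10, at 15.8 in Control. The posterior sums with it would be larger. These shares do not depend on how libraries are scaled. They are sums over genes chosen with these data known and are given as a description, with no test.

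By position in the cluster, group 13 held 67.9 ± 2.96% of the Control level, 78.6 ± 2.46% of the Model level and 68.2 ± 8.36% of the LIPUS level. Groups 10 to 12 held 10.5 ± 1.24%, 8.33 ± 0.689% and 9.68 ± 1.69%. Groups 5 to 8 held 9.77 ± 2.25%, 4.27 ± 1.49% and 9.70 ± 2.78%. The larger share of group 13 in Model stood beside smaller shares of groups 5 to 8, whose ranges did not overlap between Model (2.79 to 6.68%) and Control (7.22 to 12.8%). By cluster, Hoxb genes held 68.3%, 71.2% and 69.3% in Control, Model and LIPUS, and Hoxd genes 22.6%, 24.6% and 24.5%. The Hoxa share was 8.83 ± 0.996% in Control and 4.21 ± 0.260% in Model, with no overlap between the libraries, and 5.94 ± 2.60% in LIPUS. The number of Hox genes with at least 1 read was 27 to 33 in Control, 18 to 28 in Model and 22 to 26 in LIPUS libraries, beside fewer nuclear reads in the last 2 groups.

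Between Model and Control, 9 of the 21 Hox genes tested passed an adjusted p of 0.05 in limma's test over 13170 genes (Benjamini-Hochberg), beside 33.5% of all genes. Hoxb13, Hoxd13, Hoxd10, Hoxd9, Hoxa9 and Hoxb4 rose, 6 genes beside 14.5% of all genes called higher. Hoxa13, Hoxa5 and Hoxb9 fell, 3 genes beside 19.0% called lower. Among anterior genes 3 rose and 2 fell of 14, and among posterior genes 3 rose and 1 fell of 7. The median log2 change over the 14 anterior genes was -0.62 and over the 7 posterior genes 0.06, while it was -0.16 over all genes tested. Values of the 2 groups did not overlap for 7 of the 21 genes, 5 higher and 2 lower in Model, beside 31.4% of all genes. The direction rests on the scaling: with FPKM as deposited, 11 of 19 genes tested were called lower and 0 higher in the same limma test (12 of 19 at an unadjusted p under 0.05, as were 53.8% of all genes), beside 46.0% of all genes called, 43.1% lower and 2.95% higher. With libraries scaled to their nuclear reads 3 of 21 were higher and 4 lower, beside 9.65% and 22.1% of all genes. With weights for the quality of each library, 6 were higher and 9 lower, beside 26.8% and 32.9%.

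Group 13 split. Hoxb13, the luminal epithelial factor, stood at 176, 139.7, 139, 149 and 147 scaled FPKM in Control replicates 6 to 10, at 254, 294, 242, 222 and 272 in Model and at 199.8, 249.8, 195, 187 and 111 in LIPUS. All Model libraries lay above all Control libraries, and the LIPUS libraries spread across both, from the lowest of all 15 in replicate 10 to a value within the Model range in replicate 7. The log2 change of Model against Control was 0.77 (SE 0.18, limma adjusted p = 0.00499). It depends on the scaling: it was -0.0100 with FPKM as deposited, 0.56 with scaling to nuclear reads (limma adjusted p = 0.0891) and 0.16 after quantile normalization (limma adjusted p = 0.565), none of them called.

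Hoxd13, the last gene of the Hoxd cluster and known for digits and external genitalia as well as the prostate, stood at 31.4, 21.4, 26.4, 31.6 and 25.6 in Control, 49.7, 47.8, 53.6, 59.1 and 50.0 in Model and 43.3, 36.8, 46.2, 37.4 and 34.6 in LIPUS. The 3 groups did not overlap: Control was lowest, LIPUS between, Model highest. The change of Model against Control was 0.94 on the log2 scale (SE 0.14, limma adjusted p = 1.66e-04) and 0.16, not called, as deposited.

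Hoxa13, a regulator of hindgut and urogenital development, stood at 11.4, 12.9, 10.4, 10.7 and 13.2 in Control, 4.05, 12.5, 3.29, 0.353 and 1.24 in Model and 9.24, 4.12, 3.66, 5.92 and 15.4 in LIPUS. In Model, 4 libraries were far below every Control library and replicate 7 was within the Control range. The change of Model against Control was -2.20 (SE 0.66, limma adjusted p = 0.0190), or -2.78 without Model replicate 7, and it missed the threshold without Model replicate 10 (limma adjusted p = 0.0511).

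**Figure D2:**
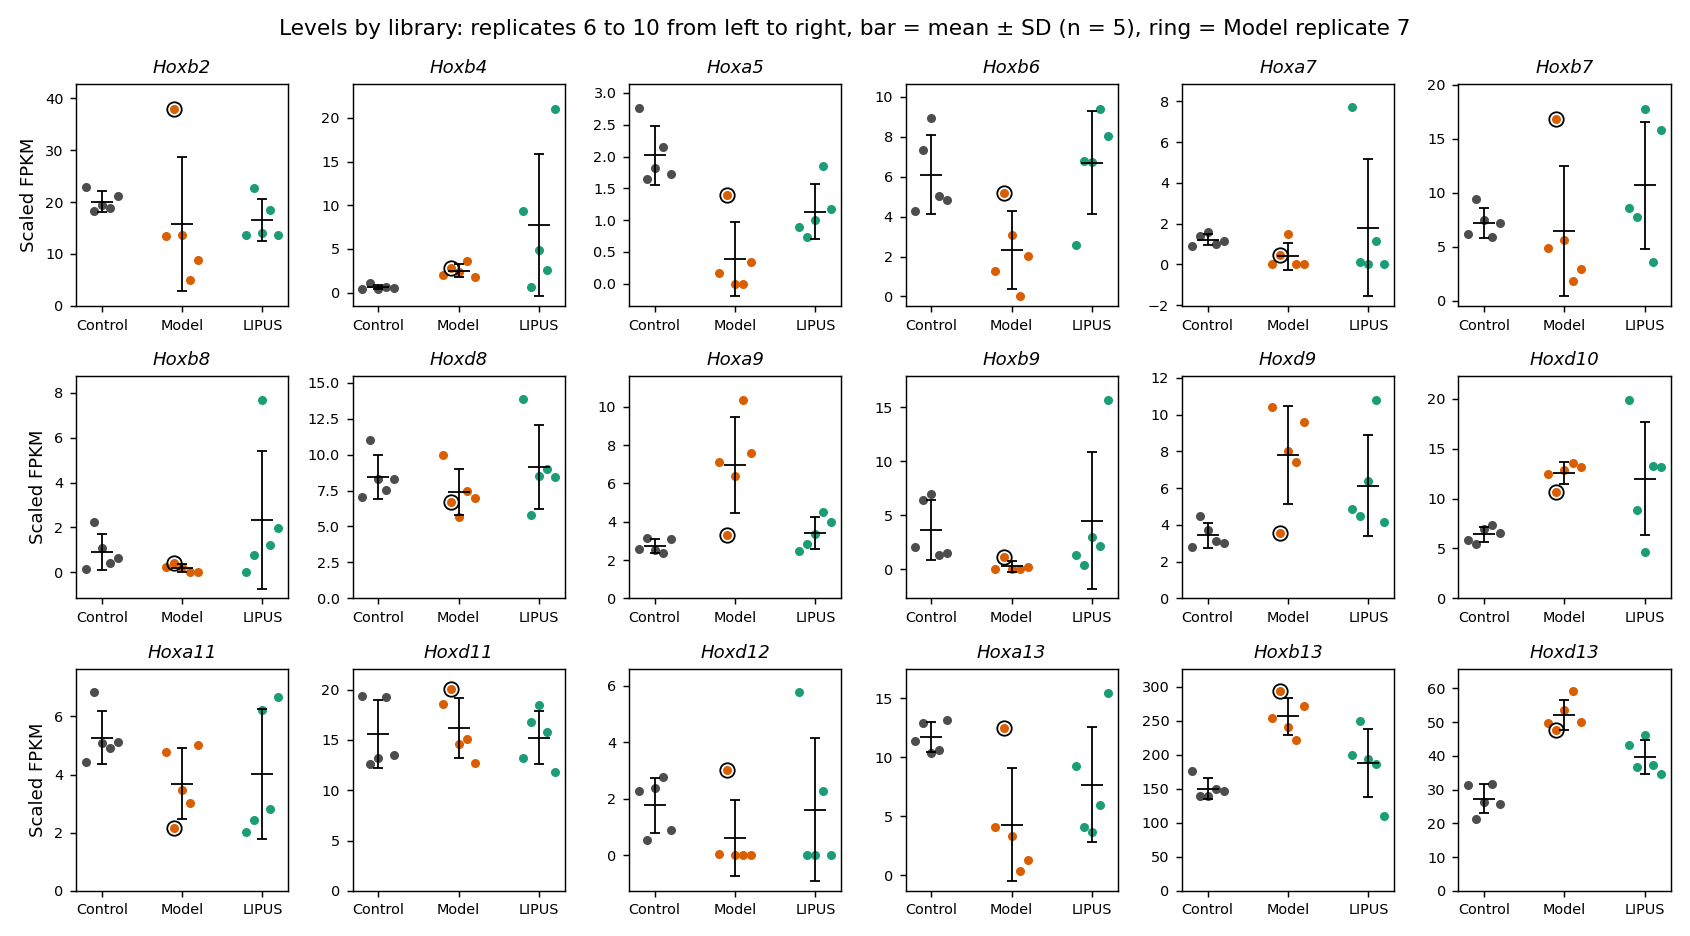
Scaled FPKM of the 18 Hox genes with a mean of at least 1 in some group, by library (points, replicates 6 to 10 from left to right) with mean and SD; the ring marks Model replicate 7. Hoxd13 shows 3 groups without overlap, and in Hoxa13 and Hoxb2 the ringed library lies apart from the other 4 Model libraries.

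A ratio of 2 genes within a library is free of the scaling, apart from the 0.1 FPKM added to both. The log2 ratio of Hoxb13 to Hoxa13 was 3.94, 3.43, 3.73, 3.80 and 3.47 in Control, 5.91, 4.54, 6.12, 8.69 and 7.60 in Model and 4.39, 5.87, 5.64, 4.92 and 2.80 in LIPUS. Every Model library, replicate 7 included, lay above every Control library, by 2.90 on average (exact permutation test over 252 splits, two-sided p = 0.00794, the smallest this design allows; adjusted p = 0.0357 over 9 ratio tests). The log2 ratio of Hoxd13 to Hoxa13 was 1.46, 0.73, 1.34, 1.56 and 0.96 in Control, 3.56, 1.92, 3.95, 6.78 and 5.16 in Model and 2.20, 3.11, 3.57, 2.61 and 1.14 in LIPUS. Again no Model library reached down to Control, and the mean difference was 3.07 (exact permutation p = 0.00794, adjusted p = 0.0357). Hoxb13 to Hoxd13 gave means of 2.47 (Control), 2.30 (Model) and 2.20 (LIPUS), and the libraries overlapped (Model against Control -0.17, exact permutation p = 0.278, adjusted p = 0.312). Within group 13, the balance of Hoxb13 and Hoxd13 against Hoxa13 thus differed between Model and Control whatever factor each library is given, while a difference between Hoxb13 and Hoxd13 was not detected. With 1 Control library left out, both ratios to Hoxa13 had an adjusted p of 0.0714, at differences of 2.83 to 3.15. This p counts the splits with a difference at least as large in size. Without Model replicate 7 the differences were 3.40 and 3.66, each with an adjusted p of 0.0357 in the exact permutation test, or 0.0476 with the smaller tail doubled. Doubling the tail, an alternative chosen after seeing the data, gave an adjusted p of 0.0714 in that exact test without Model replicate 6, 8, 9 or 10. The unadjusted p in those tests was 0.0159, the smallest that a doubled tail over 126 splits allows. The miss therefore does not show a weaker separation.

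**Figure D3:**
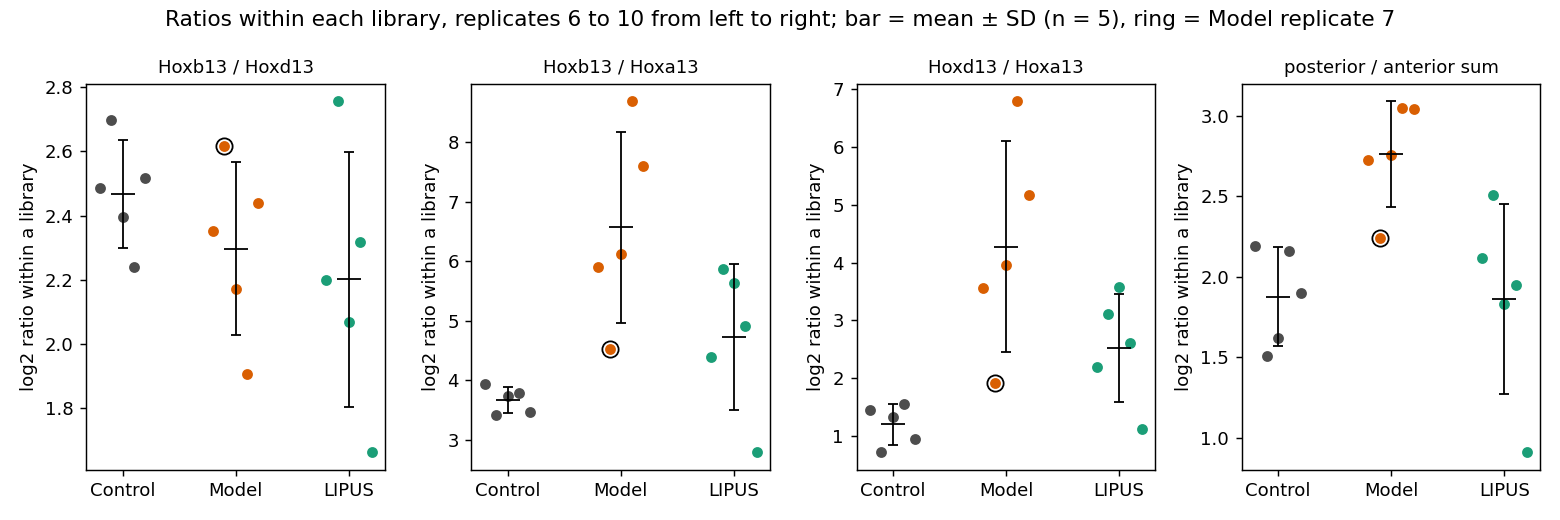
Log2 ratios within each library (points; bar, mean and SD of 5; ring, Model replicate 7) for the 3 pairs of group 13 genes and for the posterior against the anterior sum. In the panels over Hoxa13 all Model libraries lie above all Control libraries, while Hoxb13 / Hoxd13 overlaps.

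The Hoxd genes next to Hoxd13 did not all move with it. Hoxd12 was a low gene, at 2.26, 0.560, 2.37, 2.76 and 0.912 in Control, 0.0516, 3.03, 0, 0 and 0 in Model and 5.78, 0, 0, 2.29 and 0 in LIPUS. It was at or near 0 in 4 of 5 Model and 3 of 5 LIPUS libraries, and its change of Model against Control, -2.90 (SE 1.25), missed the threshold (limma adjusted p = 0.0856) but was -3.87 without Model replicate 7 (limma adjusted p = 0.0117).

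Hoxd11, known for kidney and limb patterning, stood at 19.3, 12.6, 13.2, 19.3 and 13.5 in Control, 18.5, 20.0, 14.6, 15.1 and 12.7 in Model and 13.2, 16.8, 18.4, 15.8 and 11.9 in LIPUS. All 3 groups overlapped. Its change of Model against Control had a 95% interval of -0.35 to 0.48 on the log2 scale, and its estimate, 0.0616, turned negative with other scalings (-0.71 as deposited). Hoxd10 stood at 5.84, 5.44, 6.95, 7.34 and 6.52 in Control, 12.4, 10.7, 12.8, 13.6 and 13.2 in Model and 19.9, 8.87, 4.66, 13.2 and 13.2 in LIPUS. Every Model library, replicate 7 included, was above every Control library, and LIPUS ranged from below Control to above Model. Hoxd10 rose by 0.96 (SE 0.29, limma adjusted p = 0.0190) in Model against Control. With scaling to nuclear reads this was 0.75 (limma adjusted p = 0.0666), and as deposited 0.19, neither called.

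Hoxa11, known for the uterus, kidney and limb, stood at 4.42, 6.82, 5.07, 4.93 and 5.13 in Control, 4.77, 2.15, 3.46, 3.02 and 5.03 in Model and 2.01, 2.44, 6.23, 2.80 and 6.67 in LIPUS, and was not called (Model against Control -0.55, 95% interval -1.30 to 0.20). The RNA listed as Hoxa11-as, which runs antisense to Hoxa11 and is not among the 36 genes, stood at 19.6, 24.4, 20.7, 19.0 and 19.4 in Control, 71.5, 19.3, 48.7, 76.5 and 73.2 in Model and 17.5, 27.8, 27.0, 61.2 and 24.2 in LIPUS. It was higher than Hoxa11 in every library and rose by 1.33 in Model against Control (SE 0.36, limma adjusted p = 0.0110; 0.56 as deposited, not called), with Model replicate 7 within the Control range. Library strand is not given in the sources used here, so reads of Hoxa11 and its antisense partner cannot be told apart where they overlap.

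Group 9 also split by cluster. Hoxa9, a factor known from blood stem cells and the reproductive tract, stood at 2.57, 3.16, 2.55, 2.36 and 3.10 in Control, 7.13, 3.33, 6.36, 10.3 and 7.57 in Model and 2.46, 2.82, 3.34, 4.52 and 3.99 in LIPUS. It rose by 1.23 in Model against Control (SE 0.28, limma adjusted p = 0.00326; 0.47 as deposited, not called). All Model libraries were above all Control libraries, replicate 7 by little and the other 4 by far.

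Hoxd9 stood at 2.79, 4.49, 3.71, 3.14 and 3.02 in Control, 10.4, 3.58, 8.01, 7.40 and 9.62 in Model and 4.84, 4.50, 6.40, 10.8 and 4.14 in LIPUS. Model replicate 7 was within the Control range and the other 4 Model libraries were above it. Hoxd9 rose by 1.10 (SE 0.31, limma adjusted p = 0.0139) with all libraries, and by 1.35 without replicate 7, while as deposited the change was 0.33 and not called.

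Hoxb9 went the other way. It stood at 2.10, 6.37, 7.01, 1.28 and 1.49 in Control, 0, 1.17, 0, 0 and 0.197 in Model and 1.30, 0.391, 2.98, 2.19 and 15.7 in LIPUS. It was at 0 in 3 Model libraries, and all Model libraries lay below all Control libraries. Hoxb9 fell by 3.84 on the scale of log2(value + 0.1) in Model against Control (SE 0.90, limma adjusted p = 0.00442), and it was called lower as deposited too.

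The middle of the clusters was led by Hoxd8 and the Hoxb genes. Hoxd8 stood at 7.05, 11.0, 8.28, 7.53 and 8.30 in Control, 9.98, 6.71, 5.68, 7.48 and 7.01 in Model and 13.9, 5.80, 8.52, 9.01 and 8.45 in LIPUS, overlapping in all groups (Model against Control -0.20, 95% interval -0.69 to 0.30). Hoxb8 was low and uneven, at 0.165, 2.23, 1.06, 0.425 and 0.645 in Control, 0.252, 0.421, 0.212, 0 and 0 in Model and 0, 0.760, 7.68, 1.24 and 1.98 in LIPUS. LIPUS replicate 8 was far above the rest. Hoxb8 was not called in any comparison.

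Hoxb7 stood at 6.13, 9.40, 7.51, 5.93 and 7.16 in Control, 4.84, 16.8, 5.63, 1.78 and 2.96 in Model and 8.54, 7.70, 17.7, 3.58 and 15.8 in LIPUS, and Hoxb6 at 4.31, 7.32, 8.96, 5.03 and 4.86, 1.28, 5.21, 3.09, 0 and 2.04 and 2.56, 6.81, 6.73, 9.40 and 8.03 in the same order of groups. In both genes 4 Model libraries were below every Control library and Model replicate 7 was not. Neither was called with all libraries (Model against Control -0.57 for Hoxb7 and -2.11 for Hoxb6, limma adjusted p = 0.424 and 0.0515). Without Model replicate 7, Hoxb6 had a change of -2.60 (limma adjusted p = 0.0126).

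Hoxa7 was low, and at 0 in several Model and LIPUS libraries: 0.919, 1.37, 1.57, 1.01 and 1.14 in Control, 0, 0.452, 1.51, 0 and 0 in Model and 7.75, 0.101, 0, 1.13 and 0 in LIPUS, where replicate 6 had 81 reads and the other 4 had 0 to 13. It was not called. Hoxa5, known for lung and axial patterning, stood at 2.77, 1.64, 1.81, 2.15 and 1.72 in Control, 0.169, 1.40, 0, 0 and 0.345 in Model and 0.889, 0.733, 1.01, 1.85 and 1.18 in LIPUS. All Model libraries lay below all Control libraries, with replicate 7 the closest. Hoxa5 fell by 2.88 (SE 0.61, limma adjusted p = 0.00220) in Model against Control.

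The most anterior genes with appreciable levels were Hoxb4 and Hoxb2. Hoxb4, known from blood stem cells, stood at 0.439, 1.08, 0.455, 0.601 and 0.515 in Control, 2.05, 2.81, 2.40, 3.57 and 1.77 in Model and 9.40, 0.621, 4.92, 2.54 and 21.1 in LIPUS. All Model libraries were above all Control libraries, and LIPUS ran from within the Control range to far above Model in replicate 10. Hoxb4 rose by 1.89 in Model against Control (SE 0.66, limma adjusted p = 0.0379), a call close to the threshold that was lost when Control replicate 6, 8, 9 or 10 or Model replicate 6, 8, 9 or 10 was left out, with adjusted p from 0.0516 to 0.0817 in limma's test, and with FPKM as deposited (1.16) or scaling to nuclear reads, a pseudocount of 1, no filter on low genes or limma-voom.

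Hoxb2, a hindbrain patterning gene and the highest anterior member, stood at 22.9, 18.2, 19.3, 18.8 and 21.2 in Control, 13.5, 37.9, 13.7, 5.06 and 8.78 in Model and 13.7, 22.7, 14.1, 18.4 and 13.6 in LIPUS. Model replicate 7 had the highest value of all 15 libraries while the other 4 Model libraries were below every Control library. Hoxb2 was not called with all libraries (-0.67, limma adjusted p = 0.192). Without replicate 7 its change was -1.06 (limma adjusted p = 0.00426), and 12 of 21 Hox genes were then called, 6 higher and 6 lower, beside 20.3% and 24.5% of all genes.

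**Figure D4:**
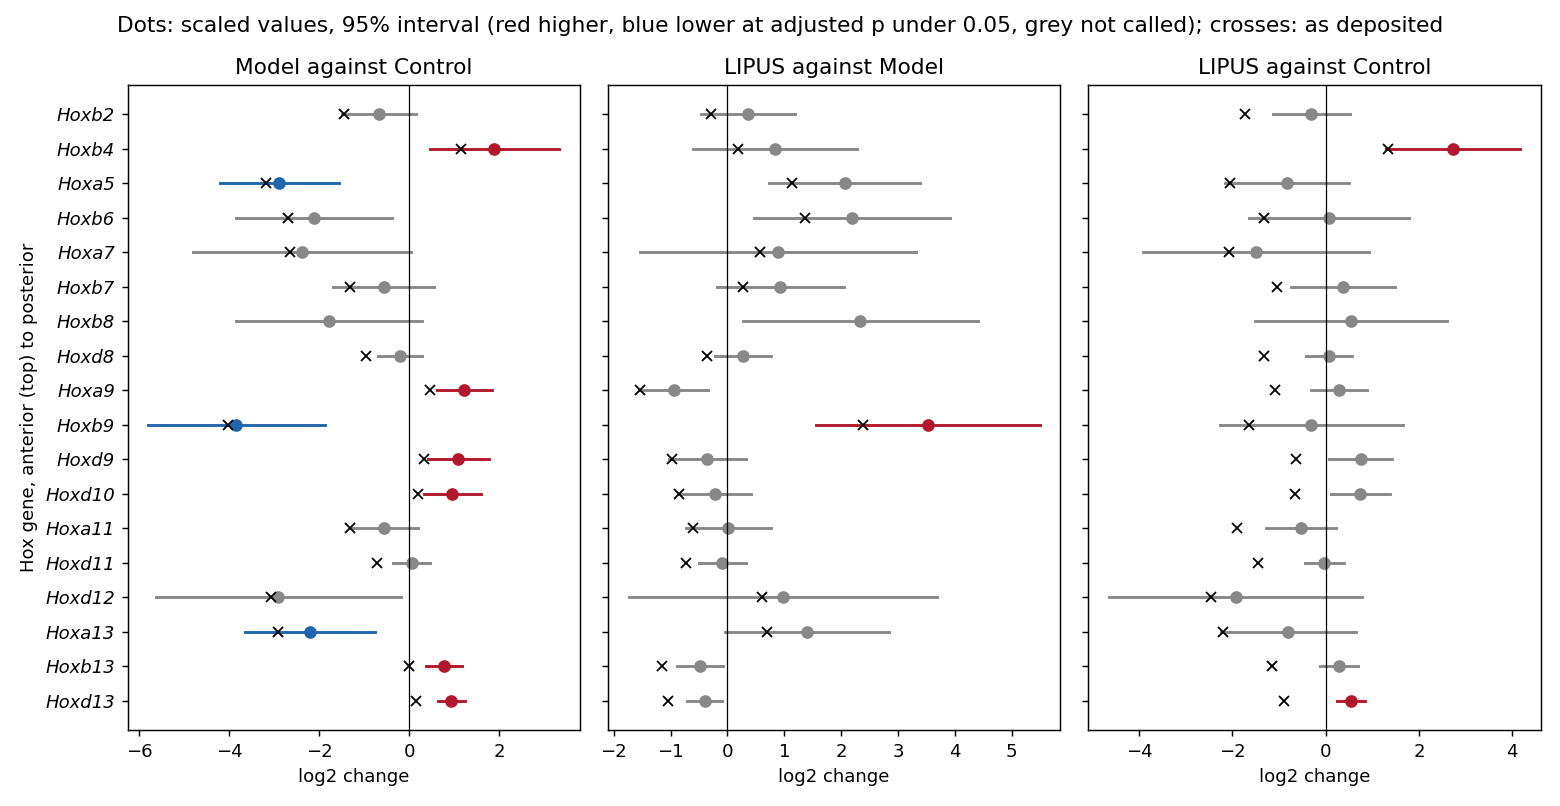
Log2 change of the 18 Hox genes with a mean of at least 1 in some group, on the scaled values with its 95% interval (dots; red higher, blue lower at adjusted p under 0.05, grey not called) in the 3 comparisons, and as deposited (crosses; none for Hoxb8, not tested there), from anterior at the top to posterior. In Model against Control the Hoxb13 estimate is 0.77 scaled and -0.01 as deposited, and LIPUS against Control shows most crosses to the left of 0, Hoxd13 and Hoxb13 among them.

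Marker lists of lobes and cell types differed between the groups as well. The 4 measured ventral secretory genes, products of the ventral lobe, summed to 141842 to 237124 scaled FPKM in Control, 432 to 103358 in Model and 20399 to 331254 in LIPUS, all 4 above 0 in each group. The 5 dorsolateral secretory genes summed to 4027 to 60871, 464 to 311162 and 8179 to 77725, with Spink1 at 0 in Model and LIPUS. Of the Model libraries, replicate 7 had the highest ventral sum. Of the 18 Hox genes given by sample, it was within the Control range in 4 (Hoxa13, Hoxd9, Hoxb6 and Hoxb8), below it in 5 (Hoxa5, Hoxa7, Hoxa11, Hoxb9 and Hoxd8) and above it in the other 9, with the highest Hoxb13 level of all 15 libraries. Sums over the 8 fibroblast markers, such as Col1a1 and Dcn, were 771 to 1305 in Control, 91.4 to 269 in Model and 126 to 819.7 in LIPUS. In Model against Control 6 of 8 fibroblast markers were called lower, beside 19.0% of all genes. Dcn was not among the 6, and none of the list was at 0. The 7 smooth muscle markers summed to 1103 to 2776, 127 to 1184 and 325 to 1636, and the 10 luminal markers to 642 to 869, 520.3 to 1567 and 633 to 1035, none of either list at 0. The 5 endothelial markers summed to 12.9 to 22.5 in Control, 0.898 to 8.30 in Model and 2.36 to 4.68 in LIPUS, with neither of the last overlapping Control, and none was at 0. The 6 leukocyte markers summed to 7.82 to 11.9, 5.22 to 20.4 and 17.6 to 57.8, with Ms4a1 at 0 in Model. Of the 4 tested, 3 were called higher in LIPUS against Model, beside 2.55% of all genes. In Model against Control 2 of the 4 were called lower, beside 19.0%, and in LIPUS against Control 2 higher, beside 11.1%. The 6 markers of the seminal vesicle, a gland next to the prostate, summed to 485 to 94498 in Control, 68.7 to 171402 in Model and 813 to 38599.7 in LIPUS, with medians of 9332, 120812 and 30213 and Pate4 at 0 in LIPUS. Sums of the basal, coagulating gland, urothelial and skeletal muscle lists overlapped between all groups. Single basal markers were called all the same: 3 of 6 lower in Model against Control, beside 19.0% of all genes. Of the 6, 2 were called higher in LIPUS against Model, beside 2.55%. In LIPUS against Control 1 of them was called lower, beside 1707 of 13170 genes. No tested gene of the coagulating gland, urothelial or skeletal muscle lists was called. All 4 ventral secretory genes were called lower in Model against Control, and none in the other comparisons. The part of lobe and cell make-up in the Hox differences was not tested. In whole tissue, fewer cells of a type and less RNA per cell cannot be told apart.

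**Figure D5:**
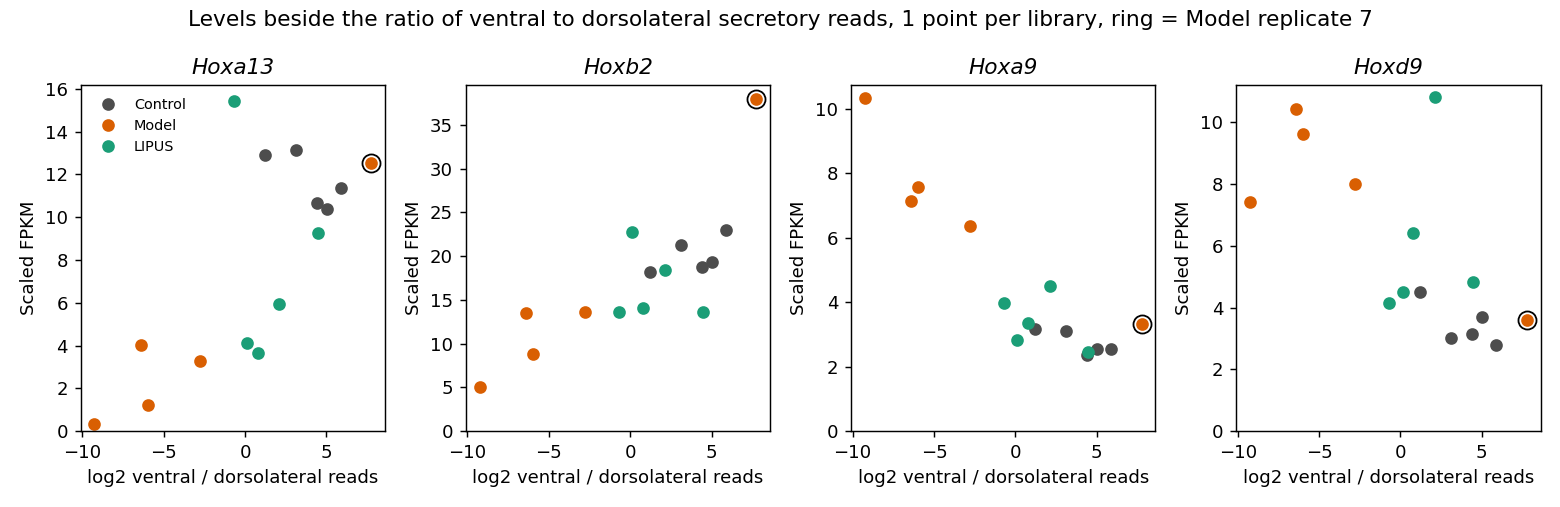
Scaled FPKM of Hoxa13, Hoxb2, Hoxa9 and Hoxd9 (y axis) against the log2 ratio of ventral to dorsolateral secretory reads (x axis), 1 point per library, ring for Model replicate 7. The 4 Model libraries with ratios from -9.25 to -2.77 have the lowest or near-lowest Hoxa13 and the 4 highest Hoxa9 values, and the ringed library lies within the Control range for Hoxa13 and Hoxd9 and just above it for Hoxa9.

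Between LIPUS and Model, 1 of 21 Hox genes was called, beside 3.89% of all genes. It was Hoxb9, higher by 3.53 on the scale of log2(value + 0.1) (SE 0.90, limma adjusted p = 0.0446). The call is not firm: the groups overlapped, LIPUS replicate 10 alone stood at 15.7, and leaving out any 1 library other than Model replicate 7 or LIPUS replicate 7 ended it (limma adjusted p from 0.0523 to 0.111). No Hox gene was called lower in limma's test, while 7 of 21 differed in either direction at an unadjusted p under 0.05 (as did 25.0% of all genes), and limma-voom on recovered reads called 0 in either direction. Hoxd13 was the 1 gene of 21 whose groups did not overlap, lower in LIPUS, beside 2.90% of all genes. Its change was -0.39 (SE 0.14, limma adjusted p = 0.106), which missed the threshold. Hoxb13 had a change of -0.49 (95% interval -0.89 to -0.0856), Hoxa9 of -0.94 (-1.55 to -0.34) and Hoxa13 of 1.40 (-0.0464 to 2.85), none called. The median change was 0.66 over the 14 anterior and -0.09 over the 7 posterior genes, beside -0.03 over all genes tested.

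This comparison depends on Model replicate 7. Without it, 8 of 21 Hox genes were called between LIPUS and Model, 6 higher and 2 lower, beside 14.5% and 15.9% of all genes. Higher in LIPUS were Hoxa5, Hoxa13, Hoxb2, Hoxb6, Hoxb7 and Hoxb9, and lower were Hoxa9 and Hoxd13. Hoxa13 then had a change of 1.98 (limma adjusted p = 0.0157) and Hoxa9 of -1.18 (limma adjusted p = 0.00210). The LIPUS libraries had log2 ratios of ventral to dorsolateral reads from -0.71 to 4.46, all above those 4 Model libraries and overlapping Control (1.22 to 5.88). The part of that ratio was not tested. With FPKM as deposited 3 of 19 genes were called, 1 higher and 2 lower, beside 14.6% of all genes (1.31% higher and 13.3% lower). The ratios to Hoxa13 did not pass the threshold between LIPUS and Model (differences of -1.85 for Hoxb13 and -1.75 for Hoxd13, exact permutation p = 0.0714 and 0.0952, adjusted p = 0.161 and 0.171). Without Model replicate 7 the first was -2.35 with an adjusted p of 0.0476 in the exact permutation test.

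Between LIPUS and Control, 2 of 21 Hox genes were called, both higher, beside 24.1% of all genes. Hoxd13 rose by 0.54 (SE 0.14, limma adjusted p = 0.0116) with no overlap between the groups, the 1 such gene of 21 beside 25.4% of all genes; as deposited it was called lower (-0.88), and with nuclear or quantile scaling it missed the threshold. Hoxb4 rose by 2.73 (SE 0.66, limma adjusted p = 0.00776; 1.35 as deposited), with LIPUS values from 0.621 to 21.1 against 0.439 to 1.08 in Control, and missed the threshold in limma-voom on recovered reads. No gene was called lower on the scaled values by limma or limma-voom (4 of 21 differed in either direction at an unadjusted p under 0.05, beside 36.3% of all genes). As deposited, 13 of 19 were called lower and 1 higher, beside 75.4% of all genes called in either direction (74.4% lower and 0.953% higher). Hoxb13 had a change of 0.28 (95% interval -0.12 to 0.68), which was -1.15 as deposited, and 0.46 without LIPUS replicate 10 (limma adjusted p = 0.0256). The ratio of Hoxd13 to Hoxa13 differed by 1.32 (exact permutation p = 0.0317, adjusted p = 0.0952) and that of Hoxb13 to Hoxa13 by 1.05 (p = 0.119 in the same exact test, adjusted p = 0.179). Without LIPUS replicate 10 these were 1.66 and 1.53, each with an adjusted p of 0.0179 in the exact permutation test (0.0357 with the smaller tail doubled). The 3 comparisons share groups, so their calls are not independent of each other.

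Genes that act on Hox clusters were counted in the same fit. Of 23 chromatin regulators of Hox clusters, 6 fell and 0 rose in Model against Control, and 7 fell and 0 rose in LIPUS against Control, beside 19.0% and 13% (1707 of 13170) of all genes called lower. As deposited 14 and 23 of the 23 were called lower, beside 43.1% and 74.4%. Ezh2, the Polycomb methyltransferase of H3K27, was at 5.02, 1.74 and 1.87 in Control, Model and LIPUS (Model against Control -1.56, limma adjusted p = 5.20e-04). The demethylases that remove that mark fell as well in Model: Kdm6b had a log2 change of -1.23 (limma adjusted p = 4.89e-04) and Kdm6a one of -2.02 (0.00592). Jarid2, a Polycomb cofactor, fell too (-0.98, limma adjusted p = 0.00576). In LIPUS against Model none of the 23 was called by limma.

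Retinoic acid is a known inducer of Hox genes. Of 14 genes of retinoid synthesis, breakdown and response tested, 3 fell and 0 rose in Model against Control, 0 were called in LIPUS against Model and 1 fell in LIPUS against Control, beside the same 19.0% and 13% of all genes called lower against Control. The 3 were Aldh1a1 (-2.73, limma adjusted p = 0.00659) and Aldh1a3 (-0.91, 0.0469), both retinal dehydrogenases, and the receptor gene Rarg (-1.02, 0.00831). Dhrs3, a retinal reductase, fell in LIPUS against Control (-1.48, limma adjusted p = 0.0103).

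Of 19 other patterning genes of the urogenital tract, 1 rose and 3 fell in Model against Control, 1 rose in LIPUS against Model, and 3 fell in LIPUS against Control. Of all genes, 14.5% were called higher and 19.0% lower in Model against Control, 2.55% higher in LIPUS against Model and 13% lower in LIPUS against Control. Tbx3, a T-box factor, was the one that rose (38.9 in Control, 60.8 in Model and 37.4 in LIPUS; Model against Control 0.64, limma adjusted p = 0.0272; -0.14 as deposited). Nr2f2, a nuclear receptor known from mesenchyme, fell from 15.2 to 5.70 in Model (-1.47, limma adjusted p = 3.03e-04) and rose in LIPUS against Model to 10.6 (0.92, limma adjusted p = 0.0455; 0.27 as deposited, not called). Wnt5a, a secreted signal of the urogenital mesenchyme, fell in Model and in LIPUS against Control (-2.25 and -2.51, limma adjusted p = 0.0143 and 0.0110). It was a low gene, with means of 1.07 in Control, 0.149 in Model and 0.226 in LIPUS, so the 0.1 added weighs on the size of these changes. Wnt5a was not tested as deposited.

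Among 10 genes that flank the clusters, 2 rose and 4 fell in Model against Control, 0 were called in LIPUS against Model, and 2 fell in LIPUS against Control, beside 14.5% higher and 19.0% lower of all genes in the first and 13% lower in the last. Next to the Hoxd cluster, on the Hoxd13 side, Evx2 was at 0.849 in Control, 0.260 in Model and 0.0822 in LIPUS and fell in both against Control (-1.79 and -2.60, limma adjusted p = 0.0332 and 0.00610), while Hoxd13 rose on the scaled values. Evx2 was a low gene, with a lowest value of 0 in Model and in LIPUS, so the 0.1 added weighs on the size of its changes. Atp5mc3, a subunit of the mitochondrial ATP synthase, rose by 1.02 in Model (limma adjusted p = 4.23e-04; 0.24 as deposited, not called), and Hibadh, which flanks the Hoxa cluster on the Hoxa13 side and encodes an enzyme of valine breakdown, by 0.70 (limma adjusted p = 0.00153; -0.0774 as deposited, not called), while Hoxa13 fell. As deposited, 7 of the 10 neighbours were lower in Model and 0 higher.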

How the data were processed

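The deposited table holds 1 FPKM value for each gene in each sample, made by the authors on rat build rn6 per the submitters' processing notes. These name DESeq2, HTSeq, HISAT2, fastp, SAMtools and R 3.2.0 without their roles. RNA came from a TRIzol extraction and went into VAHTS Universal V5 libraries, per the labels. Read strand and the handling of reads shared by overlapping transcripts of a cluster are not given in the sources used here. Whole reads were recovered from the FPKM of all 22436 genes (within 0.0001) and served for depth, floors and limma-voom. A check on simulated reads returned 100% of 5979 genes. Replicates differed beyond sampling noise (chi-square over degrees of freedom of at least 75.1).

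FPKM was divided by a median-of-ratios factor (10313 genes), log2(value + 0.1) was fitted in limma 3.58.1 (R 4.3.3) with all 15 samples and an intensity trend, and genes above 0.5 in at least 5 samples were tested, 13170 in number, with Benjamini-Hochberg adjustment. The threshold for a call was an adjusted p of 0.05. Ratios used exact permutation tests, which went through every split in Python. The members and lists were chosen with earlier results of these data known. Members with a mean of at least 1 in a group are given by sample, and from the other lists up to 4 genes by smallest p. The read shares behind the secretory ratio used only part of each marker list. Ventral reads were those of Scgb1d2, Scgb1d4 and Scgb2a1, without Sbp. Dorsolateral reads were those of Pbsn and Msmb, without Mmp7, Spink1 and Cyp2a3. The summed marker levels took in every measured gene of a list, so the secretory ratio is not a ratio of those sums. Promoters come from RefSeq (GRCr8), and protein sequences were not used here. The list of Hox cofactors is not reported here.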

Additional observations from a re-analysis of the deposited data

Results flagged for a closer look

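Single libraries stood apart from the other 4 of their group, by Dixon's test at its 95% value, in 10 of 69 sets of 5 values looked at. Chance gives about 1 in 20 for independent sets of normally distributed values. These sets share libraries, and most are levels without a log, some with values at 0, so that rate does not carry over. Of the 10 flagged, 5 were Model replicate 7: Hoxb2 at 37.9 scaled FPKM (others 5.06 to 13.7), Hoxb7 at 16.8 (1.78 to 5.63), Hoxd12 at 3.03 (0 to 0.0516), Hoxa5 at 1.40 (0 to 0.345) and Hoxb9 at 1.17 (0 to 0.197). All 5 lay above the other 4 Model libraries: Hoxb2, Hoxb7 and Hoxd12 were above the Control range, and Hoxa5 and Hoxb9 stayed below it. In LIPUS, replicate 6 stood apart in Hoxa7 (7.75, others 0 to 1.13), replicate 8 in Hoxb8 (7.68, others 0 to 1.98) and replicate 10 in Hoxb9 (15.7, others 0.391 to 2.98). In Control, replicate 6 stood apart in Hoxb13 (176, others 139 to 149.5) and replicate 7 in Hoxb4 (1.08, others 0.439 to 0.601). The cause of these values was not tested.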

How the results depend on the processing

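Model against Control had 7 to 11 calls among Hox genes under each other setting except array weights, which gave 15, and 7 to 12 with 1 library left out. As deposited 3 of the 9 genes were called in the same direction, all lower, and 6 to 9 under the other settings. LIPUS against Model, with 1 call, had 3 as deposited and with array weights and 0 with nuclear-read scaling, a pseudocount of 1, no filter, only the 2 groups compared, the replicate block or limma-voom, and 0 to 8 with 1 library left out. LIPUS against Control, with 2, had 14 as deposited, 4 with array weights and 1 with nuclear-read scaling or limma-voom, and 2 to 3 with 1 library left out. The added left-out Hoxb13 moved the log2 ratio of the posterior to the anterior sum from 1.88 to 0.20 (Control), 2.76 to 0.81 (Model) and 1.86 to 0.14 (LIPUS). Same-numbered replicates did not deviate together (correlations from -0.40 to 0.23, and 2 of 15 best with their own number), so the block shows only a shared number. It gave 8, 0 and 2 calls in the 3 comparisons, and with pairing by number the ratios over Hoxa13 of Model against Control, 2.90 and 3.07, had an adjusted p of 0.141. With 5 pairs no exact permutation p can be under 0.0625, so that test could not pass the threshold. Some log2 changes of single genes turned sign. With FPKM as deposited they were Hoxb13 -0.0100, Hoxd11 -0.71 in Model against Control, and Hoxa11 -0.60, Hoxb2 -0.29, Hoxd8 -0.36 in LIPUS against Model, and Hoxa9 -1.07, Hoxb13 -1.15, Hoxb6 -1.32, Hoxb7 -1.04, Hoxd10 -0.66, Hoxd13 -0.88, Hoxd8 -1.33, Hoxd9 -0.63 in LIPUS against Control. With scaling to nuclear reads they were Hoxd11 -0.15 in Model against Control, and Hoxd11 0.0503 in LIPUS against Model. With quantile normalization they were Hoxd11 -0.0189 in Model against Control, and Hoxa11 -0.0807 in LIPUS against Model, and Hoxb13 -0.20 in LIPUS against Control. With array weights they were Hoxd11 -0.0276 in Model against Control, and Hoxa11 -0.37, Hoxd11 0.0736 in LIPUS against Model, and Hoxd11 0.0460, Hoxd8 -0.0100 in LIPUS against Control. With limma-voom on recovered reads they were Hoxa11 -0.15 in LIPUS against Model, and Hoxd11 0.0272 in LIPUS against Control. With 1 library left out, changes near 0 also turned sign: in Model against Control Hoxd11 -0.0198 to 0.15, in LIPUS against Model Hoxa11 -0.20 to 0.22, Hoxa7 -0.14 to 1.57, Hoxd10 -0.43 to 0.0833, in LIPUS against Control Hoxb6 -0.0767 to 0.38, Hoxb8 -0.15 to 1.42, Hoxb9 -0.99 to 0.26, Hoxd11 -0.0981 to 0.0598, Hoxd8 -0.0886 to 0.22. The log2 ratios then ran, for Hoxb13 / Hoxa13 in Model against Control from 2.37 to 3.40, Hoxd13 / Hoxa13 in Model against Control from 2.44 to 3.66, Hoxb13 / Hoxa13 in LIPUS against Model from -2.35 to -1.32, Hoxb13 / Hoxd13 in LIPUS against Model from -0.24 to 0.0385, Hoxb13 / Hoxa13 in LIPUS against Control from 0.76 to 1.53, Hoxd13 / Hoxa13 in LIPUS against Control from 1.06 to 1.66. Leaving out any Control library ended both ratio calls of Model against Control (adjusted p 0.0714 in the exact permutation test). The cause of these shifts was not tested. The 15 members under the level filter were not tested. The pooled spread assumes that the 3 groups vary alike.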
